A study of Homo sapiens with 52 samples.

Results

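The mRNAs of the mitochondrial respiratory chain were followed in WI-38 cells, a normal human lung fibroblast line that stops dividing after a limited number of population doublings. Members were chosen by symbol, as the subunits of complex I (NDUFA, NDUFB, NDUFC, NDUFS and NDUFV), complex II (SDHA to SDHD), complex III (UQCR), complex IV (COX4 to COX8) and the ATP synthase or complex V (ATP5), together with the protein-coding genes of mitochondrial DNA (MT-). The pattern matched 260 of the 59408 genes listed; 160 symbols that end in P and digits, the form given to pseudogenes, were left out, and 100 members remained, of which 87 are nuclear and 13 mitochondrial. MT-ATP6 and MT-ATP8 end in the same letters by chance and were kept; without them 98 members would remain. The untreated cells were young cultures at a population doubling level (PDL) of 32 to 46. Plasma membrane damage was induced with 0.0090% sodium dodecyl sulfate (SDS), calcium influx with medium holding 75 mM KCl and DNA damage with 250 nM doxorubicin (DXR), each over 24 h. Sampling began at the end of the treatment (day 0) and went on at days 1 to 4, 6, 8 and 16 after it. The paper names the senescence that follows SDS, KCl and DXR PMD-Sen, Ca2+-Sen and DDR-Sen. Cells at replicative senescence (RS) were taken near PDL 52. All groups share the wild-type genotype, the line and the medium; the 26 groups have 2 libraries each, 52 in all, and the study's methods call the samples of a group independent, without saying in what respect, and p-values measure the spread between these samples. Counted reads were 15.26 M and 18.97 M in the untreated libraries, 47.13 M and 55.51 M in RS, 19.31 M to 51.4 M after SDS, 20.52 M to 51.59 M after KCl and 20.94 M to 52.99 M after DXR.

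Oxidative phosphorylation passes electrons from NADH through complex I, or from succinate through complex II, to ubiquinone, then through complex III and cytochrome c to oxygen at complex IV. Complexes I, III and IV pump protons across the inner mitochondrial membrane, and complex V uses their return to make ATP. Complex II is encoded wholly in the nucleus, whereas the other complexes mix nuclear subunits with subunits of mitochondrial DNA. The mitochondrial genes are transcribed as long precursors from both strands and cut into separate mRNAs, and they are translated by mitochondrial ribosomes. In senescent fibroblasts, altered mitochondrial respiration is a known feature. These values are mRNA levels of a cell population, in which a change per cell and a change in the mix of cells cannot be told apart, and they say nothing of protein or respiration.

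Of the 87 nuclear members, 75 reached the minimum mean of 10 normalized counts (reads scaled to a library of average size) over the 26 groups and were tested, as were all 13 mitochondrial genes. They comprised 31 of 36 genes of complex I, 4 of 4 of complex II, 9 of 9 of complex III, 14 of 19 of complex IV and 17 of 19 of complex V. NDUFA4 and NDUFA4L2, named as complex I genes but known as subunits of complex IV, are counted in complex IV throughout. Per kilobase of exon, ATP5F1B, the catalytic beta subunit of ATP synthase, had the highest mean level of the nuclear members, at 8950 normalized counts, followed by NDUFS5 at 5127 and NDUFB7 at 3312. The isoforms known from muscle, testis or other tissues were counted at or near 0: COX8C was at 0 in all 52 libraries, which allows up to 3 reads in each, COX6A2 reached at most 1.04, COX7B2 1.47, COX4I2 3.86 and COX6B2 13.5 normalized counts. Their counterparts had mean levels per kilobase of 3271 (COX8A), 2538 (COX6B1), 1320 (COX4I1), 815.3 (COX6A1) and 322.7 (COX7B) normalized counts. Of the remaining isoform pairs, COX7A2 had 1052 per kilobase and the heart-type COX7A1 127.8, and NDUFA4 had 805.7 and NDUFA4L2 10.2. The form known from most tissues was the higher one in each pair. The other untested members were ATP5IF1, ATP5MGL, NDUFA3, NDUFA6, NDUFA7, NDUFS3 and NDUFV2, with a highest library between 1.04 and 22.7 normalized counts; NDUFS3 and NDUFV2 are core subunits of complex I. Since genes that every cell uses are among them, a count near 0 here does not show that a gene was silent. UQCRHL is a near-identical copy of UQCRH, and the reads of both are uncertain.

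For 67 of the 87 nuclear members, a RefSeq promoter window (GRCh38.p14, 250 bases before to 50 after the start) was at hand and was searched on both strands for the motifs of 4 factors known from respiratory genes. The GABP core CCGGAAG was in 19 windows (28.4%), against 2857 of 27305 promoters of all genes (10.5%), and the palindrome of NRF1 in 4 (5.97%) against 349 (1.28%). The longer motif of YY1 was in 4 (5.97%) against 246 (0.901%), and CCAAT in 24 (35.8%) against 9661 (35.4%). The matches below belong to members whose values are described further on; capitals mark the motif, as read on the coding strand of the gene.
ATP5F1C, chr10:7788145-7788174 (+): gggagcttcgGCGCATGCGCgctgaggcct
SDHD, chr11:112086753-112086782 (+): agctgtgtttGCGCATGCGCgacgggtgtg
SDHB, chr1:17054142-17054171 (-): cacccgggaaaCCGGAAGccgcctcccact
UQCR11, chr19:1605561-1605590 (-): tccaaccctcgCCGGAAGttactgtaagtg
NDUFA1, chrX:119871774-119871803 (+): ttccgtcgcttCTTCCGGagccgtacgtgg
ATP5MC1, chr17:48892697-48892726 (+): agctgcggaaagCCAATaagagtggggaat
ATP5MC1 held 4 CCAAT motifs in its window. A match is a description of the letters and not evidence of binding. ATP5F1C and SDHD, which share the NRF1 letters, were both lower on day 0 of KCl, SDS and DXR, where 30.9%, 28.1% and 21% of all genes were. Of the other carriers, NDUFB4 passed the test on day 0 of SDS (-0.23), a call lost without any 1 library. NDUFA8 passed on none of these days. A link between the letters and the changes was not tested.

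At the end of the KCl treatment, the nuclear respiratory mRNAs were mostly lower than in untreated cells. Of 75 tested, 38 fell and 6 rose (median log2 difference -0.22, with 56 below 0), where 30.9% of all 15633 tested genes fell and 28.2% rose. Complex V had 12 of 17 members lower (median -0.34), complex I had 16 of 31 lower and 1 higher (median -0.26), complex III 4 lower and 1 higher, complex IV 4 lower and 3 higher, and complex II 2 lower and 1 higher. Among members averaging 100 normalized counts or more, the steepest falls were those of NDUFV1, the NADH-binding subunit of complex I (chr11:67605653-67612554), ATP5MC1, a source of the c-ring of ATP synthase (chr17:48892765-48895871), and NDUFV3 (chr21:42879644-42913304). NDUFV1 stood at 2733 and 2865 normalized counts in the untreated libraries and at 1192 and 1031 after KCl, 2.52-fold lower (log2 difference -1.34 ± 0.0718 SE, adjusted p = 1.03e-15). ATP5MC1 went from 1240 and 1084 to 534.3 and 495.7 (2.25-fold lower, -1.17 ± 0.0983, adjusted p = 1.57e-11). NDUFV3 went from 1679 and 1627 to 755.1 and 725.1 (2.23-fold lower, -1.16 ± 0.0812, adjusted p = 3.3e-13). In each of the 3 genes the KCl libraries lay far below both untreated ones. NDUFB5 (-0.94), ATP5PD (-0.84) and ATP5MC2 (-0.74) followed. ATP5F1A and ATP5F1B, the alpha and beta subunits of ATP synthase (-0.40 and -0.25), COX5A of complex IV (-0.34) and UQCRC1 of complex III (-0.28) also fell, ATP5F1B not without KCl library 2.

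The 6 nuclear members that rose on day 0 of KCl were SDHA, UQCR11, NDUFB11, COX4I1, COX7A2L and NDUFA4L2. SDHA, the flavoprotein of complex II (chr5:218241-256700), had 306.6 and 320.7 normalized counts in untreated cells and 494.7 and 454.3 after KCl (1.51-fold, 0.59 ± 0.113, adjusted p = 3.52e-05). UQCR11, a small subunit of complex III, went from 651.3 and 636.5 to 953 and 877.9 (1.42-fold, adjusted p = 1.08e-05), and NDUFB11 of complex I rose by 0.36. The members of complex II moved apart, since the membrane anchors SDHC (-0.29) and SDHD (-0.31) fell while SDHA rose. COX4I1 (0.23) and COX7A2L (0.27) passed the test as well, but neither did without untreated library 2 or KCl library 1. NDUFA4L2, a low-abundance gene, had 33.3 and 44.9 normalized counts against 14.03 and 21.4 (1.11, adjusted p = 0.0107), and its call was lost without untreated library 1 or KCl library 2 (0.90).

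After SDS, gains and losses were both found on day 0. Of 75 nuclear members, 21 fell and 8 rose (median -0.10, with 47 below 0 and 28 above), where 28.1% of all tested genes fell and 27.6% rose, so that the share of falls was near that of all genes. The losses were found in complex I (9 lower, 5 higher), complex V (7 lower, median -0.14), complex II (2 lower), complex IV (2 lower, 3 higher) and complex III (1 lower). The steepest fall was that of ATP5MC3, another c-ring gene, from 4625 and 4304 to 3144 and 2626 normalized counts (1.55-fold lower, -0.63 ± 0.0756, adjusted p = 1.69e-08). ATP5F1C, the gamma subunit that turns within the ATP synthase (chr10:7788129-7807815), went from 3531 and 3102 to 2507 and 2126 (1.43-fold lower, -0.52 ± 0.0955, adjusted p = 2.59e-05), and NDUFC2 from 697.4 and 654.6 to 520.7 and 484.4 (1.34-fold lower, adjusted p = 0.00111). The groups did not overlap in any of these genes. COX7A2L, a factor of respiratory supercomplex assembly (chr2:42333546-42425088), had 4975 and 4660 normalized counts against 2367 and 2204 (2.11-fold higher, 1.08 ± 0.0839, adjusted p = 2.14e-12), and it was also higher than on day 0 of KCl (0.81, adjusted p = 5.82e-10) and DXR (0.98, adjusted p = 1.36e-11). NDUFA5 (chr7:123536997-123558255) rose from 1034 and 1018 to 1494 and 1553 (1.48-fold, 0.57 ± 0.174, adjusted p = 0.00608), NDUFV3 rose by 0.42, COX5A by 0.36, and NDUFA4L2 went from 14.03 and 21.4 to 98.3 and 88.8 (2.36 ± 0.37, adjusted p = 2.36e-06). NDUFV1 (-0.10), SDHA (-0.20) and ATP5F1B (-0.01) did not pass the test. Without untreated library 1 the number of nuclear members that fell was 9, and without SDS library 2 it was 10.

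After DXR, few nuclear members changed on day 0, and those that did were mostly higher. Of 75 nuclear members, 10 rose and 5 fell (median 0.11), where 19.5% of all tested genes rose and 21% fell. SDHA had 517.2 and 495.1 normalized counts against 306.6 and 320.7 in untreated cells (1.61-fold, 0.69 ± 0.113, adjusted p = 9.26e-06). NDUFC1, a small subunit of complex I (chr4:139266880-139302551), had 1221 and 1112 against 723.4 and 740.1 (1.59-fold, 0.67 ± 0.0663, adjusted p = 9.88e-10). Both genes lay above every untreated library, as did NDUFS6 (1835 and 1589 normalized counts, 0.40). SDHC (0.36) rose and SDHD (-0.29) fell, so that the anchors of complex II parted. In complex V, 4 members fell: ATP5F1C had 2375 and 2410 normalized counts (1.38-fold lower, adjusted p = 0.000189), ATP5MC2 1719 and 1684 against 2114 and 2133 (-0.32), and ATP5F1B (-0.31) and ATP5F1A (-0.17) were known here as the mean of both libraries alone, ATP5F1A with a call that was lost without any 1 library. The number of nuclear members that rose was 4 without DXR library 1 and 6 without untreated library 2.

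**Figure D1:**
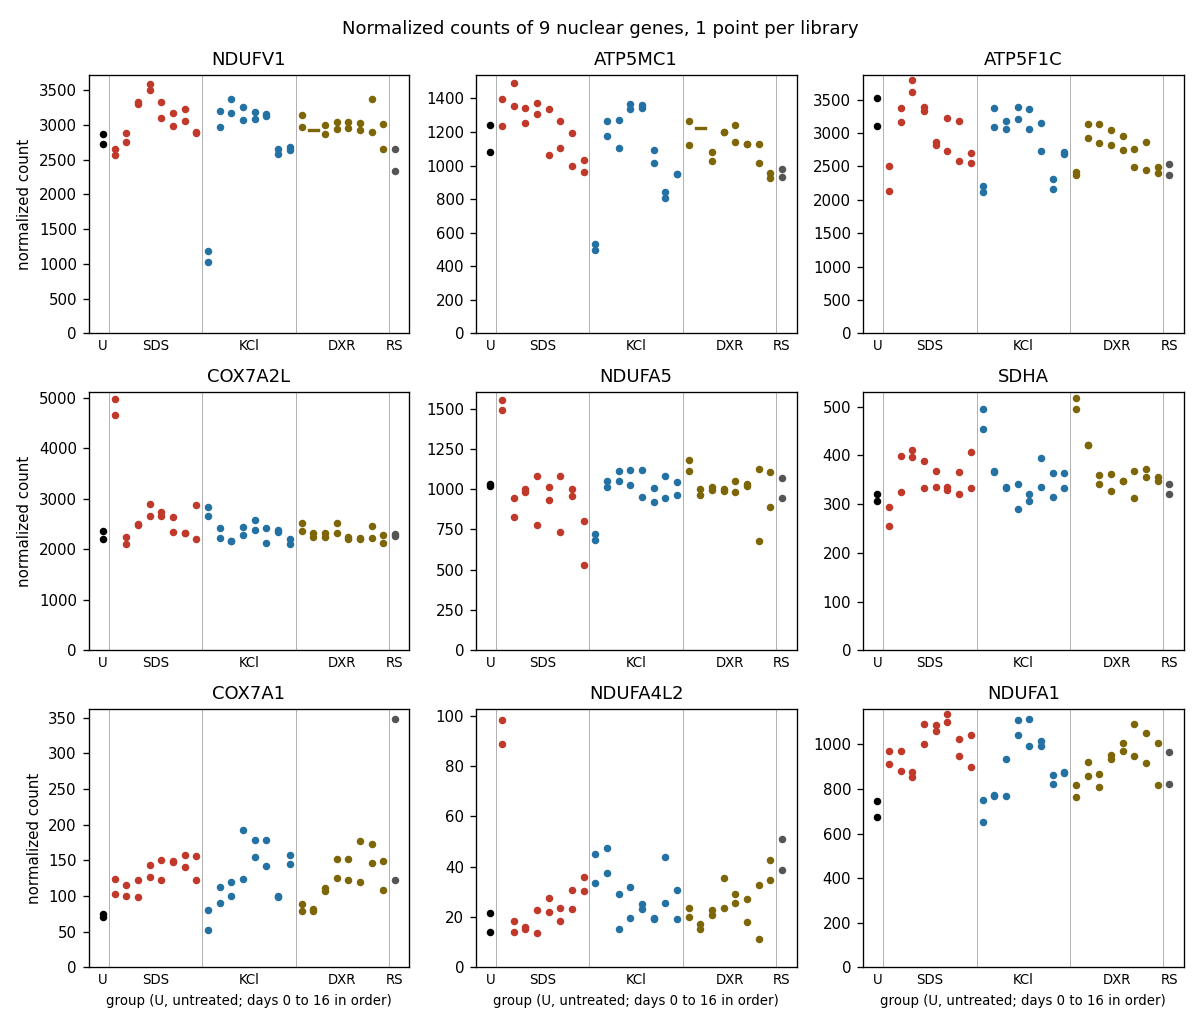
Normalized counts of 9 nuclear respiratory genes (vertical axes) in untreated cells, over the days after SDS, KCl and DXR, and in RS (horizontal axes). Each point is 1 library, and a short bar stands for a group of which the mean alone is known. NDUFV1 and ATP5MC1 dip on day 0 of KCl, COX7A2L peaks on day 0 of SDS and SDHA is higher on day 0 of KCl and DXR than in untreated cells.

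Set against each other on day 0, the inducers differed in many respiratory genes, and most nuclear members that differed were lower after KCl than after SDS or DXR. Of 75 nuclear members, 41 were lower after KCl than after DXR and 1 was higher (31% and 30.1% of all genes). NDUFV1 (-1.46 ± 0.072, adjusted p = 7.61e-17), NDUFV3 (-1.45) and NDUFB5 (-1.15) were among the furthest apart, and complex V reached -1.21. The exception was UQCR11 (0.51). Against KCl, SDS had 30 members higher and 7 lower (32.9% and 31.2% of all genes), with NDUFV3 (1.58 ± 0.081, adjusted p = 1.04e-16), ATP5MC1 (1.35) and NDUFV1 (1.24) higher and SDHA (-0.79) lower. Against DXR, SDS had 26 lower and 7 higher (28% and 28.8% of all genes). NDUFC1 (-0.90), SDHA (-0.88) and NDUFC2 (-0.65) were lower in SDS and COX7A2L higher. The count of 26 was 14 without DXR library 1 and 16 without SDS library 2.

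After SDS and KCl, more nuclear members were above the untreated level on days 3 and 4 than the share of all genes would give, whereas after DXR their share was near or below that of all genes. After SDS, 10 of 75 were higher on day 1, 25 on day 2, 43 on day 3, 25 on day 4, 22 on day 6 and 13 on day 8, where 16.5%, 12.4%, 11.7%, 12.8%, 15.8% and 14% of all tested genes were higher. After KCl, 4 were higher on day 1, 2 on day 2, 23 on day 3, 29 on day 4 and 16 on day 6, against 8.65%, 3.47%, 8.37%, 10.1% and 14% of all genes. After DXR, 13, 3, 10, 9, 10 and 14 were higher on days 1, 2, 3, 4, 6 and 8, against 15.4%, 9.92%, 11.2%, 12.6%, 18.2% and 18.8%. Compared directly with DXR, SDS had 9 nuclear members higher on day 3 and 0 on day 4, and KCl had 2 and 1. Over all 15633 tested genes, these counts were 702 and 69 for SDS and 418 and 267 for KCl. In these direct comparisons 0 nuclear members were lower than after DXR. Of the 15633 tested genes, 511 and 66 were lower for SDS and 350 and 171 for KCl, so that 0 was near the share of all genes. Falls were few over these days, with at most 5 nuclear members lower on any of them apart from day 8 of KCl. Between 369 (day 2 of KCl) and 2933 (day 8 of DXR) of the 15633 tested genes were lower on the same days. By limma's test no nuclear member fell on days 2 and 3 of SDS, and none did so at an unadjusted p under 0.05. Of all tested genes, 1278 and 1571 fell in limma's test on these 2 days. The counts rested on single libraries in places. Without untreated library 2, SDS had 4, 6 and 8 on days 1, 2 and 6, KCl 9 on day 6 and DXR 8 and 5 on days 1 and 3. Without library 1 of the day, SDS had 8 on day 4 and 2 on day 8, and DXR 6 on each of days 6 and 8, but DXR had 22 on day 8 without library 2. With the spread of the compared groups alone, SDS had 28, 15, 5 and 2 on days 3, 4, 6 and 8, and KCl 16 and 2 on days 4 and 6. Further, day 3 of SDS had 15 without untreated library 2 and 17 without SDS library 1, day 3 of KCl had 4 without KCl library 1 and 8 without untreated library 2, and day 4 of KCl had 9 without KCl library 1 and 13 without untreated library 2.

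On day 3 of SDS, 70 of 75 nuclear members lay above 0, with a median of 0.28, and each complex had its share: 18 of 31 members of complex I, 1 of 4 of complex II, 5 of 9 of complex III, 7 of 14 of complex IV and 12 of 17 of complex V rose. NDUFA1 (chrX:119871487-119876662), a membrane subunit needed for complex I assembly, went from 745.5 and 672.7 to 1002 and 1092 normalized counts (0.56, adjusted p = 0.000214), although 44.52% of its exons overlap RNF113A on the other strand. COX5A, a nuclear-encoded subunit of complex IV, went from 1541 and 1495 to 2213 and 2015 (0.48, adjusted p = 0.000111), and UQCR11 from 651.3 and 636.5 to 945.6 and 972 (0.57, adjusted p = 3.43e-05). All 3 had both SDS libraries above both untreated ones. On day 4 of KCl, 70 of 75 members lay above 0 (median 0.22), with 12 members of complex I, 1 of complex II, 3 of complex III, 6 of complex IV and 7 of complex V higher. There, NDUFA1 had 1115 and 994 normalized counts (0.57, adjusted p = 0.000194) and COX6B1, the subunit between paired complex IV monomers, 3011 and 2769 against 2132 and 1972 (0.49, adjusted p = 0.000158).

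On day 8 of KCl, 19 nuclear members fell and 3 rose (median -0.10), where 22% of all genes fell and 21.2% rose, so that the falls were near the share of all genes and the rises below it. ATP5F1C had 2157 and 2309 normalized counts against 3531 and 3102 in untreated cells (-0.57, adjusted p = 1.51e-05), and SDHB, the iron-sulfur subunit of complex II (chr1:17018722-17054170), 1124 and 1114 against 1509 and 1429 (-0.39, adjusted p = 0.00132). ATP5MC1 (-0.49), NDUFA12 (-0.49), UQCRFS1, the Rieske iron-sulfur protein of complex III (-0.31), and ATP5F1B (-0.30) fell too. Without untreated library 1 the count was 9, and without KCl library 1 it was 10. On the same day 21 nuclear members were higher after SDS than after KCl (11.9% of all genes) and 22 lower after KCl than after DXR (11.9%), with NDUFS7 (0.56 and -0.48) and NDUFS8 (0.47 and -0.45), iron-sulfur subunits of complex I, among the furthest apart; the first value of NDUFS8 missed the threshold without SDS library 1. These counts were 1 without SDS library 1 and 5 without KCl library 1 in the first comparison, and 4 without DXR library 1 and 6 without KCl library 1 in the second. On day 2, 20 nuclear members were higher after SDS than after DXR (14.1% of all genes), among them ATP5MC3 (0.43), ATP5MC2 (0.41) and COX5A (0.37), and the count was 7 without DXR library 2.

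**Figure D2:**
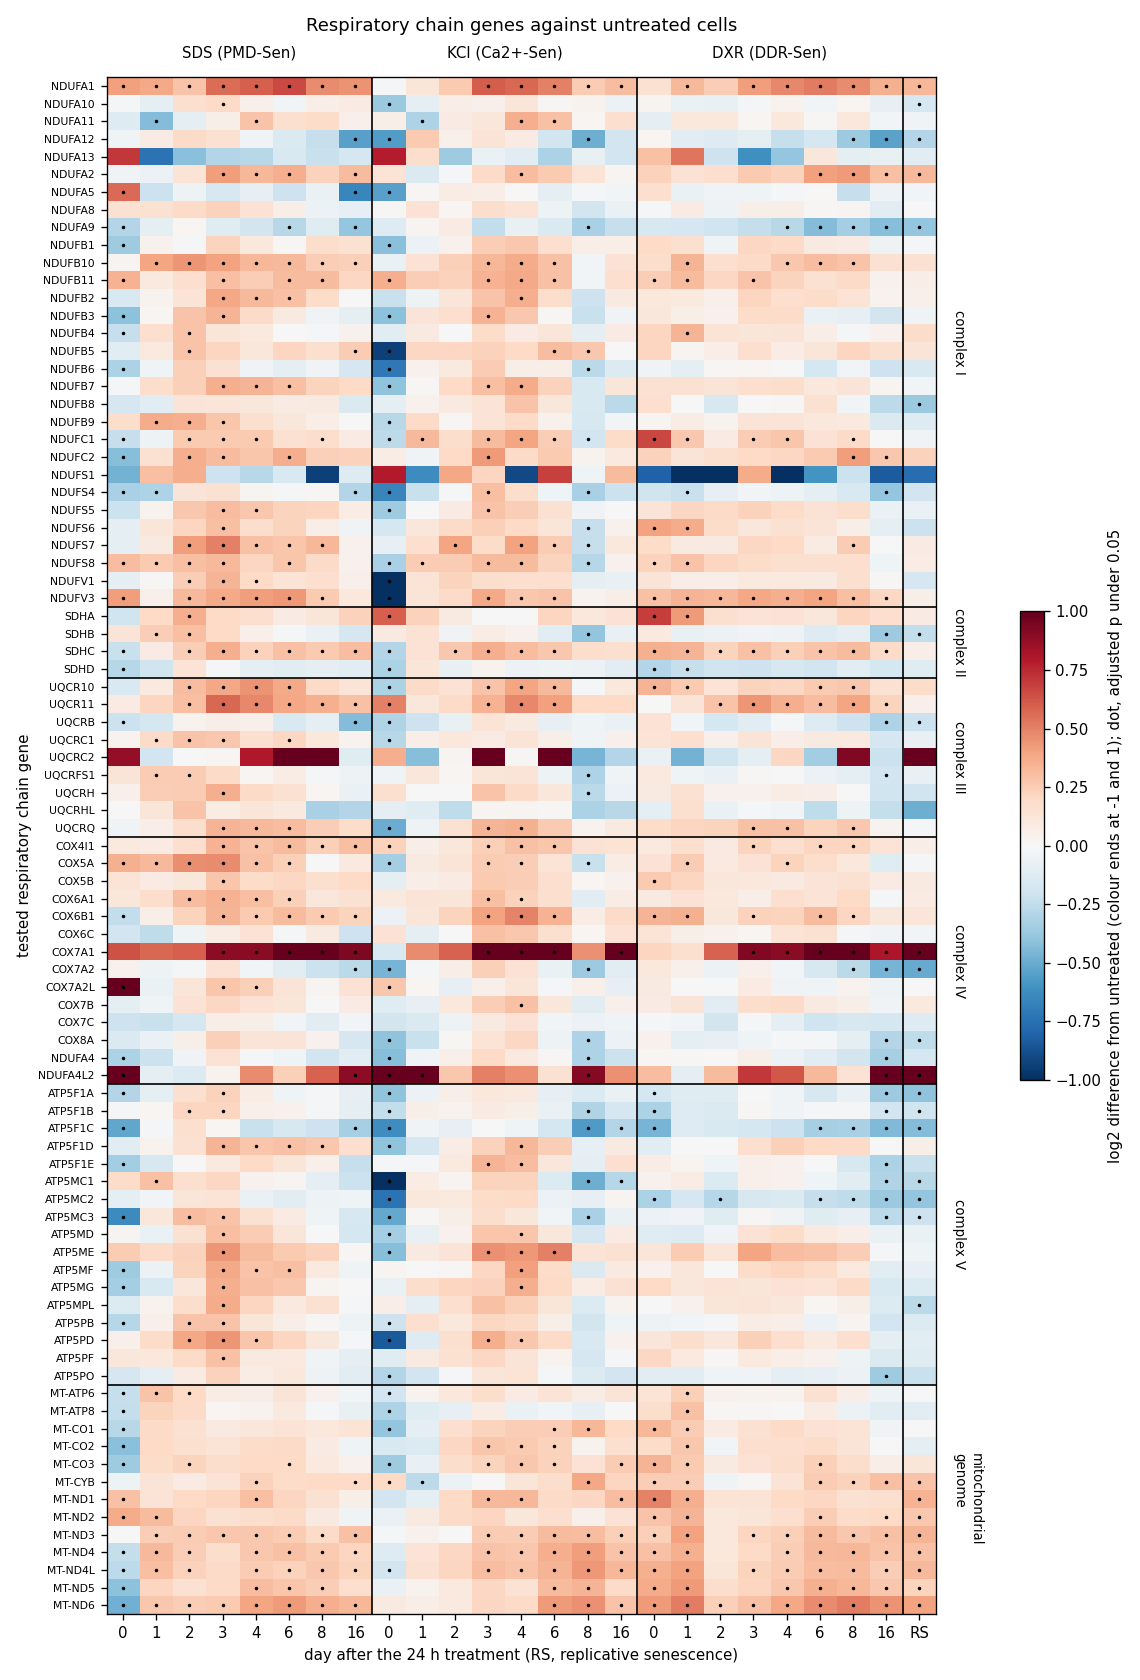
Log2 differences from untreated cells (colour scale) of tested respiratory members (rows, grouped by complex, mitochondrial genes apart) in the 25 other groups (columns, by inducer and day); dots mark an adjusted p under 0.05. The day 0 column of KCl is the lowest for the nuclear members, and the columns of day 3 and day 4 of SDS and KCl are mostly above 0.

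In established senescence, members of complex V were lower than in untreated cells after DXR and at RS, while a few genes of other complexes were higher. On day 16 of DXR 17 of 75 nuclear members fell and 8 rose (24.6% and 22.5% of all genes), with a median of -0.08 and 51 below 0. That median was -0.026 with scaling by library totals and -0.017 with totals without mitochondrial genes. At RS 15 fell and 4 rose (23.4% and 24.3%), with a median of -0.07 and 48 below 0. In both states the share of falls was at or below that of all genes. On day 16 of SDS 11 rose and 7 fell (21.4% and 22.6%), and on day 16 of KCl 2 rose and 2 fell (8.9% and 7.89%). In complex V, 8 members fell after DXR (median -0.19), 7 at RS (median -0.20), 1 after SDS and 2 after KCl. ATP5F1A, the alpha subunit of ATP synthase, had 15510 and 15221 normalized counts in untreated cells, 12268 and 11610 on day 16 of DXR (-0.36, adjusted p = 7.35e-05) and 11373 and 11854 at RS (-0.40, adjusted p = 1.95e-05), and it differed by -0.08 after SDS and -0.07 after KCl, short of the threshold. ATP5F1C was lower in all 4 states, by -0.33 after SDS, -0.29 after KCl, -0.44 after DXR and -0.43 at RS, although the first 2 calls were lost without untreated library 1 or a day 16 library. The rises on day 16 of SDS numbered 5 without SDS library 1 and, with the spread of the compared groups alone, 1, and the falls at RS then 3. The falls numbered 9 on day 16 of DXR without untreated library 1 or DXR library 2, and 5 at RS without untreated library 1 and 6 without RS library 1.

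COX7A2, the ubiquitous form of its complex IV subunit, and COX7A1, the heart-type form, went in opposite directions after SDS, DXR and at RS. COX7A2 had 2224 and 2041 normalized counts in untreated cells, 1577 and 1517 on day 16 of DXR (-0.46, adjusted p = 0.000124) and 1488 and 1509 at RS (-0.51, adjusted p = 3.51e-05), and it fell by 0.27 on day 16 of SDS, a call lost without untreated library 1 or either SDS library. COX7A1 (chr19:36150922-36152869) had 70.1 and 74.0 normalized counts in untreated cells, 156.6 and 122.8 on day 16 of SDS, 144.7 and 158 on day 16 of KCl, 148.6 and 108.3 on day 16 of DXR, and 122 and 347.6 at RS. All 8 senescent libraries stood above both untreated ones, and the RS libraries were themselves far apart. The log2 differences were 0.94, 1.06, 0.81 and 1.50 (adjusted p = 0.00825, 0.00984, 0.0201 and 5.9e-05); after SDS the call was lost without SDS library 1 (0.76), after KCl without untreated library 1 or KCl library 2, and after DXR without either untreated library or DXR library 1 (0.58). The RS difference was 0.75 without RS library 2 and 2.26 without RS library 1, still past the threshold.

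NDUFA1 was higher in all 4 senescent states, by 0.45 after SDS (adjusted p = 0.000575), 0.31 after KCl (0.0368 as adjusted p), 0.35 after DXR (adjusted p = 0.00484) and 0.33 at RS (adjusted p = 0.00762), and the last 3 calls were lost without untreated library 2. NDUFA12, an accessory subunit of complex I, fell after SDS (-0.54) and DXR (-0.53). UQCRB of complex III had 2116 and 2089 normalized counts on day 16 of SDS (-0.43, adjusted p = 0.000205). SDHB had 1150 and 1136 on day 16 of DXR (-0.36, adjusted p = 0.00237), below both untreated libraries. NDUFA5 had 530.5 and 801.8 on day 16 of SDS, after 1494 and 1553 on day 0, and its log2 difference from untreated cells of -0.65 was lost without SDS library 1 (-0.36).

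The senescent states were compared with each other and with their own day 0. By limma's test no respiratory member passed the threshold between day 16 of DXR and RS (1.25% of all genes were higher and 2.49% lower on day 16, or 33.4% of the calls higher, against 69.1% of them with scaling by library totals); 1 nuclear member was higher and 3 nuclear and 1 mitochondrial were lower at an unadjusted p under 0.05. Day 16 of SDS had 7 nuclear members higher than RS and 1 lower (9.03% and 11.2% of all genes), among them ATP5MC2 (0.35), ATP5F1A (0.32) and NDUFA5 (-0.62), and these 3 calls were lost without SDS library 1. Day 16 of KCl had 8 higher and 1 lower (15% and 14.4%), with ATP5MC2 (0.43), COX7A2 (0.40) and ATP5F1E (0.39) higher. KCl stood above DXR on day 16 in 10 nuclear members and below in 1 (16.5% and 11.8%), again with ATP5F1E (0.48), ATP5MC2 (0.40) and COX7A2 (0.35); without a single library the first count was between 3 and 9, and with scaling by library totals it was 4, where the share of higher calls over all genes went from 58.2% to 44.1%.

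From day 0 to day 16, many nuclear members rose in KCl-treated cells and many fell in DXR-treated ones. After KCl, 40 of 75 nuclear members were higher on day 16 and 4 lower (30.8% and 27.8% of all genes), among them NDUFV1 (1.26) and NDUFV3 (1.23), with SDHA lower (-0.45). After DXR, 25 were lower and 1 higher (22% and 19.9%), with NDUFC1 (-0.67), COX7A2 (-0.57) and SDHA (-0.52) lower. After SDS, 22 were higher and 14 lower (29.7% and 30.8%), with NDUFC2 (0.66) and SDHC (0.53) higher and NDUFA5 (-1.22) and COX7A2L (-0.94) lower. The falls after DXR numbered 11 without DXR day 0 library 1, the rises after SDS 11 without SDS day 0 library 2 and the falls after SDS 7 without SDS day 0 library 1. With the spread of the compared groups alone, SDS had 8 higher and 7 lower, and DXR 13 lower.

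The 13 mitochondrial mRNAs had higher levels per kilobase than any nuclear member. MT-CO1, the catalytic core of complex IV (chrM:5904-7445), had 277871 and 267809 normalized counts in untreated cells and made 31.74% of the reads of the 13 mitochondrial mRNAs there. Per kilobase, its mean level over the groups was 1.92e+05, that of MT-CO2 1.077e+05, that of MT-ND4 1.039e+05, that of MT-ATP8 25478 and that of MT-ND3 20611 normalized counts. The 13 genes together took 2.819% and 2.74% of all counted reads in the untreated libraries, and between 2.473% and 3.47% in the 22 libraries whose share is known exactly. The other libraries are known here by the mean of their group. The group mean was 2.445% on day 0 of SDS and 2.534% on day 0 of KCl, against 3.449% and 3.482% on days 0 and 1 of DXR. The nuclear members together took 0.482% in untreated cells, 0.4191% on day 0 of KCl, 0.5661% on day 3 of SDS and 0.4342% at RS. The RS libraries had 0.3927% and 0.4757%, the higher of them between the untreated libraries at 0.4624% and 0.5015%. MT-ATP8 and MT-ATP6 overlap by 46 bases and MT-ND4L and MT-ND4 by 7, reads of nuclear copies of mitochondrial DNA may be counted with the genes, and MT-ND6 lies on the other strand, where reads of the antisense transcript cannot be told apart.

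**Figure D3:**
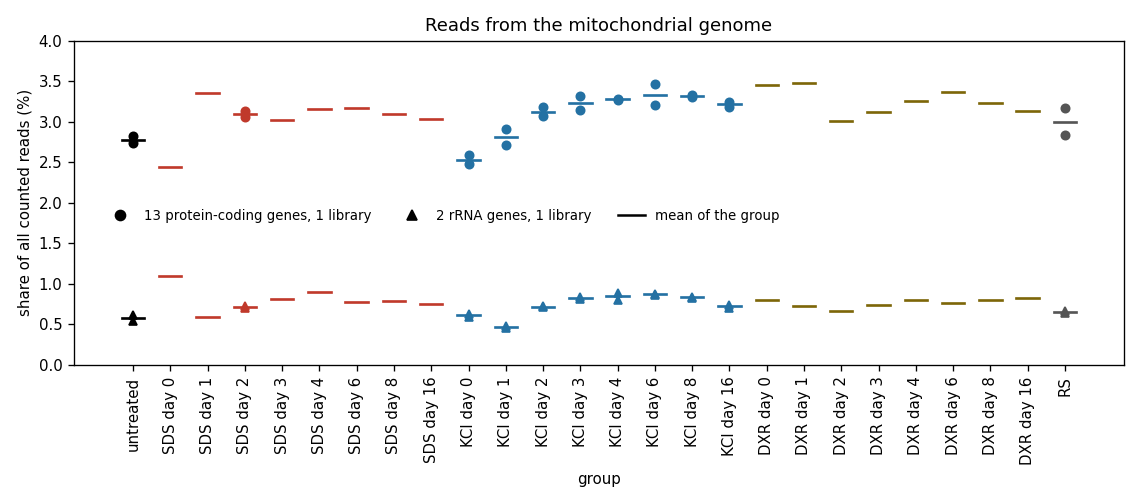
Share of all counted reads taken by the 13 mitochondrial mRNAs (vertical axis, percent) in untreated cells, over the days after each inducer and in RS (horizontal axis). Short bars are group means and points are libraries where these are known; triangles and the lower bars show the 2 ribosomal RNA genes. The mRNA share is highest on days 0 and 1 of DXR (3.449% and 3.482%) and lowest on day 0 of SDS (2.445%) and KCl (2.534%).

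The mitochondrial genes parted by treatment on day 0. DXR raised 10 of 13, with all 13 above 0 and a median of 0.30, and on day 1 all 13 (median 0.34), where 19.5% and 15.4% of all genes rose. With the spread of the compared groups alone, the counts were 6 and 7. For genes known as a mean only after DXR, that spread came from the untreated pair and other genes of similar level. MT-ND6, a complex I subunit (chrM:14149-14673, minus strand), had 19943 and 20220 normalized counts in untreated cells and a mean of 26977 on day 0 of DXR (0.43, adjusted p = 8.53e-05) and 28632 on day 1 (0.51, adjusted p = 1.91e-05). MT-ND1 (chrM:3307-4262) had a mean of 58995 on day 0 (0.50, adjusted p = 0.000112), while MT-CO2 (0.18), MT-ATP8 (0.18) and MT-ATP6 (0.14) did not pass the test there. The count on day 1 was 8 without untreated library 2, and also where the DXR day 1 means were taken as 1 library.

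After SDS, 9 of the 13 fell and 2 rose on day 0, where 28.1% of all genes fell and 27.6% rose. MT-ND6 had 15326 and 13566 normalized counts (1.39-fold lower, -0.48 ± 0.0723, adjusted p = 1.17e-05), and MT-CO2 (-0.42), MT-ND5 (-0.41), MT-CO3 (-0.35) and MT-CO1 (-0.27) fell as well. MT-ND1 (mean 51238, 0.30, adjusted p = 0.00553) and MT-ND2 (mean 43820, 0.37, adjusted p = 0.000527) rose. These 2 follow the ribosomal RNA genes on the mitochondrial map, and both ribosomal RNAs were higher too: MT-RNR1 went from 13801 and 11287 to a mean of 36684 normalized counts (1.56 ± 0.133, adjusted p = 2.48e-09), and MT-RNR2 differed by 0.82. MT-CYB (-0.05), near the other end of the map, did not pass the test, and the call of MT-CO1 was lost without untreated library 1. Reads of the ribosomal RNAs came to 44.64 for each 100 reads of the 13 mRNAs on day 0 of SDS, against 20.88 in untreated cells, 24.13 on day 0 of KCl and 23.1 on day 0 of DXR.

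After KCl, 5 of the 13 fell and 1 rose on day 0, where 30.9% of all genes fell and 28.2% rose, so that the falls were not far from the share of all genes. MT-CO1 had 209212 and 206116 normalized counts (1.31-fold lower, -0.39 ± 0.0864, adjusted p = 0.000862) and MT-CO3 52989 and 55458 against 67807 and 70966 (-0.36, adjusted p = 0.000398). In both genes the KCl libraries lay below the untreated ones. MT-CYB, of complex III, had 66422 and 67335 against 58801 and 57846 (0.20, adjusted p = 0.0372), and its call was lost without any 1 of the 4 libraries. Compared directly, 12 of 13 mitochondrial genes were lower on day 0 of SDS than of DXR, with MT-ND6 (-0.90 ± 0.072, adjusted p = 1.53e-09) foremost, and 12 of 13 lower on day 0 of KCl than of DXR, with MT-CO1 (-0.72) and MT-CO3 (-0.69), where 28% and 31% of all genes were lower. Between SDS and KCl, 2 were higher after SDS (MT-ND1, 0.49, and MT-ND2, 0.44) and 4 lower, where 32.9% and 31.2% of all genes were, so that the lower ones were near the share of all genes. On day 1 all 13 were lower after KCl than after DXR (12.1% of all genes) and 8 higher after SDS than after KCl (9.81%), MT-CYB in both (-0.50 and 0.39); the count of 13 was 8 without KCl library 1.

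**Figure D4:**
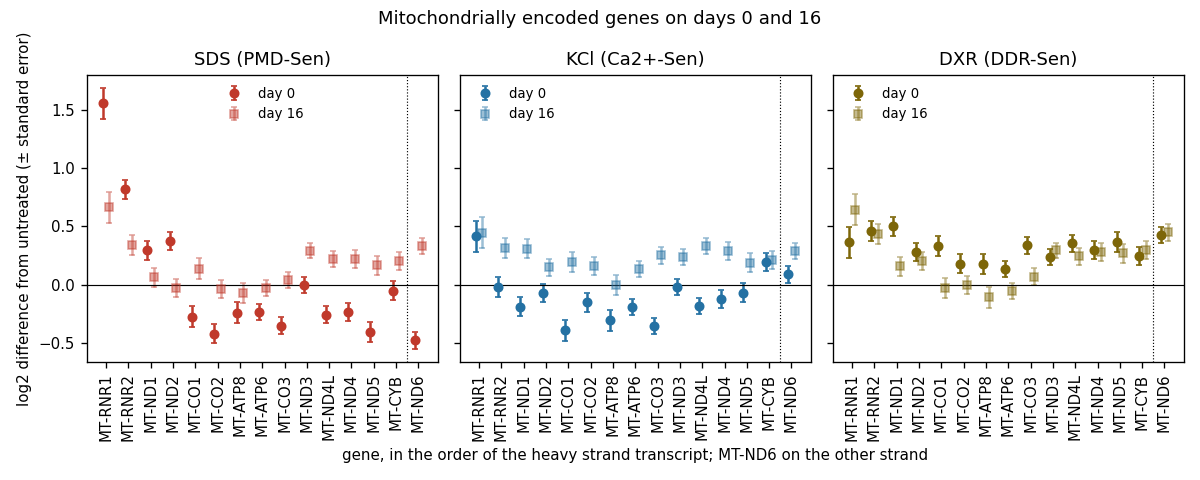
Log2 differences from untreated cells (vertical axes) of the 2 mitochondrial ribosomal RNAs and 13 mRNAs (horizontal axes), on day 0 (circles) and day 16 (squares) of each inducer, with standard errors. Genes are in map order except MT-ND6, which lies on the other strand before MT-CYB and is drawn last. On day 0 of SDS the highest value is 1.56 at MT-RNR1 and the lowest -0.48 at MT-ND6, with MT-ND2 at 0.37. MT-CYB, the last of these genes on the map, did not pass the test there. On day 0 of DXR all lie above 0.

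After day 2 the mitochondrial mRNAs that passed the test were all higher than in untreated cells. On days 3 to 16 of each inducer and at RS, between 2 and 8 of 13 were higher in each group, where between 8.37% and 24.3% of all genes were. No mitochondrial mRNA was lower in these groups in limma's test or at an unadjusted p under 0.05. Of the 15633 tested genes, between 1184 (day 3 of KCl) and 3847 (day 16 of DXR) were lower. With 13 genes, 0 lower was not far from the smallest of these shares. On day 8 of KCl 7 were higher (median 0.31): MT-ND6 had 27438 and 27834 normalized counts (0.46, adjusted p = 3.7e-05) and MT-ND4 166357 and 160043 (0.42). In the 4 senescent states, 5, 6, 7 and 8 were higher for SDS, KCl, DXR and RS. MT-ND3 (0.29, 0.24, 0.29 and 0.34), MT-ND4 (0.22, 0.29, 0.28 and 0.29), MT-ND4L (0.22, 0.33, 0.24 and 0.32) and MT-ND6 (0.33, 0.29, 0.45 and 0.40), all subunits of complex I, passed the test in each of them. MT-CO2, MT-ATP8 and MT-ATP6 lay between -0.11 and 0.16 in these states and passed the test in none of them, nor at an unadjusted p under 0.05. MT-ND1 and MT-ND2, also subunits of complex I, did not pass the test on day 16 of SDS. The calls of MT-ND4 and MT-ND4L on day 16 of SDS, of MT-ND3, MT-ND4 and MT-ND6 on day 16 of KCl and of MT-ND4L on day 16 of DXR were each lost without 1 library or another. From day 0 to day 16, 12 mitochondrial genes were higher in KCl, 10 were higher and 2 lower in SDS, and 5 were lower in DXR, where 30.8% of all genes were higher in KCl, 29.7% higher and 30.8% lower in SDS, and 22% lower in DXR. With the spread of the compared groups alone, 3 were higher in SDS. Most of the 13 genes are known as a mean only in both SDS groups. Their spread in that setting came from other genes of similar level.

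NDUFS1 and UQCRC2, core subunits of complexes I and III, gave no usable comparison, because the libraries of a group disagreed. NDUFS1 (chr2:206114817-206159603), an iron-sulfur subunit of the NADH-oxidizing arm, had 1317 and 361.8 normalized counts in untreated cells, 1814 and 108.6 on day 1 of KCl, and 98.4 and 1515 on day 16 of DXR. UQCRC2 (chr16:21952660-21983660) had 922.5 and 43.95 on day 3 of KCl, 42.9 and 698.1 on day 6 of KCl, and 29.99 and 453.6 at RS. Libraries of either gene fell near a high or a low level in the same group, and their pooled SDs on the log2 scale were 1.24 for both, where the median of nuclear members was 0.0955. Of 11069 genes with a mean of at least 100, 87 had an SD above 0.8, and these 2 were the members among them. NDUFV1, another core subunit of complex I, had an SD of 0.0699.

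**Figure D5:**
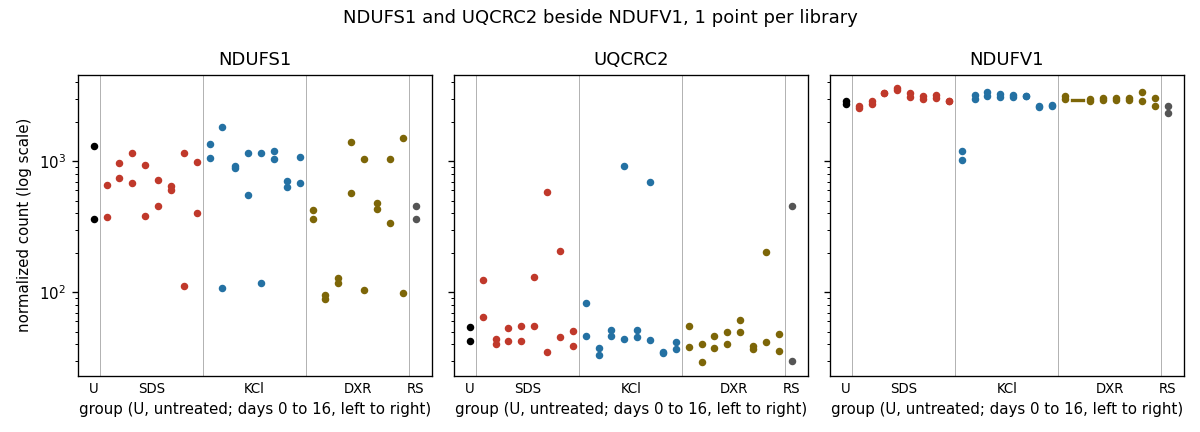
Normalized counts (vertical axes, log scale) of NDUFS1, UQCRC2 and, for comparison, NDUFV1 in the libraries of each group (horizontal axes). In some groups the libraries lie more than an order of magnitude apart for NDUFS1 and UQCRC2 and close together within the groups for NDUFV1.

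Genes that assemble, supply or regulate the chain were read from other lists. On day 0 of KCl, 25 of 47 assembly factors fell and 7 rose, 6 of 10 carriers fell, 37 of 75 mitochondrial ribosomal proteins fell and 9 rose (median -0.24), and 12 of 16 genes of the tricarboxylic acid cycle fell and 2 rose (median -0.38), where 30.9% of all genes fell and 28.2% rose. In the senescent states, mitochondrial ribosomal proteins were lower in 31 of 75 on day 16 of SDS, 40 on day 16 of DXR and 35 at RS (medians -0.20, -0.27 and -0.24), and in 5 on day 16 of KCl, where 22.6%, 24.6%, 23.4% and 7.89% of all genes were lower, so that the count after KCl was near the share of all genes. Genes for the transcription and upkeep of mitochondrial DNA were lower in 13, 12 and 13 of 23 in the same 3 states, and in 4 after KCl. The tricarboxylic acid cycle had 8, 12 and 11 of 16 lower, and 2 after KCl. Of the 15 subunits and carriers with other symbols, 8 fell and 2 rose on day 0 of KCl, and 5, 5 and 6 were lower in the 3 states. Of the 11 regulators, 6 rose and 1 fell on day 0 of KCl, and 5, 4 and 3 were lower and 3 higher in each of the 3 states. The 2 mitochondrial ribosomal RNAs were both higher on day 16 of each inducer, and MT-RNR1 alone at RS. Of the assembly factors, 13, 17 and 12 were lower and 9, 8 and 7 higher in the 3 states, against 4 and 2 after KCl, where 21.4%, 22.5%, 24.3% and 8.9% of all genes were higher. The shares of lower assembly factors after SDS and at RS were near those of all genes.

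Among single genes of these lists, PPARGC1A, a coactivator of mitochondrial gene expression, had 6.01 and 6.58 normalized counts in untreated cells and 152.1 and 143.1 on day 0 of KCl (4.35 ± 0.457, adjusted p = 1.26e-09). It was also higher on day 16 of SDS (34.0 and 42.5), on day 16 of DXR (52.4 and 44.6) and at RS (21.6 and 51.1), and on day 16 of KCl it missed the threshold (1.27, adjusted p = 0.0535). MRPS6 of the mitochondrial ribosome had 905.8 and 978.6 in untreated cells and 14412 and 13261 on day 0 of KCl (14.7-fold higher, 3.87 ± 0.116, adjusted p = 1.04e-21). MRPS6 lies on the same strand as SLC5A3, a transporter of myo-inositol induced by high salt, whose locus it overlaps, and the reads of both cannot be told apart. SDHAF4, which helps to mature SDHA, went from 142.3 and 126.6 to 31.3 and 23.3 (4.83-fold lower). On day 0 of SDS, SUPV3L1, a helicase of mitochondrial RNA decay, went from 605.2 and 641.4 to 1526 and 1894 (1.45), and MPC1, of the pyruvate carrier, from 336.7 and 330.6 to 879.4 and 838.2 (1.36). UCP2 rose on day 0 of DXR, to 1313 and 1042 from 507 and 534.5 (1.17). CYCS, the electron carrier cytochrome c, had 2137 and 2983 on day 16 of SDS against 4733 and 4511 (-0.87), and FH, fumarase, 1214 and 1097 on day 16 of DXR against 2379 and 2439 (-1.06).

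The cells carried the fibroblast markers in every library. All 10 were well counted, with FN1 the most abundant over all groups and COL1A1 in untreated cells, and their sum lay between 535100 and 1330000 normalized counts. Endothelial markers summed to 32.5 to 272 with the highest value on day 0 of KCl, where PECAM1 had a mean of 143.6 against 3.01 in untreated cells, and CDH5 was at 0 in untreated cells. Leukocyte markers summed to 10.9 to 424, mostly CD14, with the highest sum in RS library 1, and PTPRC, CD68 and CD3E were at 0 in untreated cells. PTPRC had its highest group mean, 26.61, on day 2 of DXR. CD14 had a mean of 271.3 on day 8 of KCl against 29.01 in untreated cells. Muscle markers summed to 6.73 to 98.95, mostly DES, with MYH1 and MYH11 at 0 in untreated cells. Their highest sum was in library 1 of day 0 of KCl, where CKM had a group mean of 21.1 against 1.00 in untreated cells. Epithelial markers summed to 1815 to 5109, mostly KRT18 (1838 in untreated cells and 4357 on day 0 of KCl) and KRT19, with CDH1 and SFTPC at 0 in untreated cells. CDH1 had its highest group mean, 13.39, on day 0 of KCl. KRT18, CDH1, PECAM1 and CKM on day 0 of KCl and CD14 on day 8 of KCl were higher in groups with respiratory falls. The leukocyte sum was higher in RS library 1 as well. What part these markers have in the respiratory differences was not tested.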

How the data were processed

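WI-38 RNA libraries were sequenced as paired-end reads; per the labels, the authors used Trim Galore, HISAT2, HTSeq, featureCounts and DESeq2 with GRCh38, in versions not given in the sources used here, and strandedness is not given there either. The authors deposited 52 tables, 25 of them distinct, each comparing 1 group with the untreated one. The signal that the authors deposited per gene, its counts scaled by library size factors and averaged over 4 libraries, was used. Their log2 fold changes, standard errors, test statistics, p-values and adjusted p-values were not. There were 0 other per-sample columns. In 23 tables, 1 row is named by a list of positions and no gene (at most 0.00223% of a table) and was left out.

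Because the untreated pair is common to all tables and reads are whole numbers, the reads of each library were recovered from these means. In 10 tables this held for all genes, and in the other 15 for nearly all; there, the most abundant genes are known as the exact mean of both libraries. Recovered libraries carry no replicate number, so that library 1 and 2 are names. The untreated reads came out identical from 2 disjoint sets of 5 tables for 59408 of 59408 genes. Depth per library ranged from 15.26 M to 55.51 M counted reads, exact for 22 libraries and partly estimated for 30.

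Values were tested as log2(normalized count + 1) with limma 3.58.1 in R 4.3.3, with 1 mean per group, a spread pooled over all groups and Benjamini-Hochberg adjustment over 15633 genes with a mean of at least 10 over the 26 groups; fold changes are on that scale and understate those of low genes. For a gene known as a mean only, that mean was the value of the group and its spread came from the other groups. Calls were made at an adjusted p under 0.05. All comparisons against untreated cells share the same 2 libraries. The method was tested on simulated data. With 2 libraries a group, small differences can miss the threshold, and a gene that missed it is not shown to be unchanged. Alternatives were other scalings, filters, pseudocounts and sample sets, and leaving out each library in turn.

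The genes named were the mitochondrial members, SDHA to SDHD, 8 core subunits, 7 isoform pairs, up to 3 members per direction with the furthest change and a mean of at least 100 on day 0 and day 16 and in RS, and up to 3 of each other list. The remaining genes were chosen with their values in view. Some genes are counted but not reported here by name. The members and lists were chosen with earlier results of these data known. Coordinates are from GENCODE v29 (GRCh38) and promoter windows from RefSeq GRCh38.p14.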

Additional observations from a re-analysis of the deposited data

Results flagged for a closer look

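In 5 respiratory genes the change from day 0 to day 16 passed the test in opposite directions after 2 inducers, with at least 1 between them on the log2 scale. The difference of the changes was itself tested in limma with Benjamini-Hochberg adjustment over all tested genes. The genes were picked by these same tests, so that the p-values below are no separate support. From day 0 to day 16, 30.8% of all genes rose and 27.8% fell after KCl, 29.7% and 30.8% after SDS, and 19.9% and 22% after DXR. The share of all genes that met the rule for opposite changes was not counted. NDUFC1 changed by 0.446 after KCl and by -0.665 after DXR, a difference of 1.11 (adjusted p = 3.59e-11). ATP5MC1 changed by 0.881 after KCl, by -0.338 after DXR and by -0.399 after SDS, which differed from KCl by 1.22 for DXR (KCl minus DXR, adjusted p = 1.8e-08) and by -1.28 for SDS (SDS minus KCl, adjusted p = 4.27e-09). ATP5PD changed by 0.88 after KCl and by -0.224 after DXR, a difference of 1.10 (adjusted p = 1.53e-08). NDUFA5 changed by -1.22 after SDS and by 0.511 after KCl, a difference of -1.73 (adjusted p = 4.89e-07). NDUFV3 changed by -0.312 after SDS and by 1.23 after KCl, a difference of -1.54 (adjusted p = 1.77e-12).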

How the results depend on the processing

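No call of a respiratory member reversed its direction under any alternative run, and other scalings moved the median of all genes by less than 0.1 in each comparison. No paired analysis was possible because the recovered libraries carry no replicate number. Counts below are of nuclear members unless mitochondrial ones (MT) are named. Scaling by library totals left 4 of 10 members higher on day 16 of KCl than of DXR. Of the calls over all genes, it moved the share that was higher from 51.3% to 63.9% on day 1 of KCl, from 60.5% to 47.4% for SDS minus DXR on day 2, from 47.1% to 35.1% and from 58.2% to 44.1% for KCl minus DXR on days 8 and 16, and from 44.6% to 55.1% for day 16 of SDS minus RS; totals without mitochondrial genes moved it from 49.5% to 60.2% on day 4 of DXR. Without the filter on low values, the members called higher were 6 on day 1 and 15 on day 4 of SDS, 15 on day 3 and 19 on day 4 of KCl, and 6 on day 3 and 9 on day 8 of DXR, where p-values were adjusted over more genes.

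With a log2 difference of at least 0.5 asked for, day 0 kept 2 lower for SDS, 13 lower for KCl, and 2 higher with 0 MT for DXR. SDS kept 0, 0, 4, 2, 2, 1 and 2 higher on days 1 to 4, 6, 8 and 16, KCl 2, 2 and 3 on days 3, 4 and 6 with 1 lower on day 8, and DXR 0 with 1 MT, 1, 2 and 1 on days 1, 3, 6 and 8, with 1 lower on day 16; RS kept 1 lower. Between inducers, SDS minus DXR kept 9 lower with 7 MT on day 0 and 0 higher on day 2, SDS minus KCl 16 higher on day 0 and 1 on day 8, and KCl minus DXR 20 lower with 4 MT on day 0, 1 MT on day 1, 0 on day 8 and 0 higher on day 16. From day 0 to day 16, SDS kept 3 higher, 3 lower and 2 MT, KCl 13 higher and 3 MT, and DXR 4 lower.

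With the spread taken from the groups compared alone, 28, 15, 5, 2 and 1 were higher on days 3, 4, 6, 8 and 16 of SDS, 16 and 2 on days 4 and 6 of KCl, and 5 with 6 MT, 8 with 7 MT, 5 and 7 on days 0, 1, 3 and 8 of DXR; 11 were lower on day 16 of DXR and 3 at RS. On day 8, 3 were higher in SDS than KCl and 13 lower in KCl than DXR, and from day 0 to day 16, SDS had 8 higher, 7 lower and 3 MT and DXR 13 lower. Most MT genes are known as a mean only in both SDS groups, and their spread there came from other genes of similar level. On days 0 and 1 of DXR it came from the untreated pair and such genes. With all MT genes, the median mitochondrial share, partly estimated, was 3.928% in place of 3.159%.

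Leaving out each library in turn, the counts on day 0 were 9 to 20 lower for SDS and 4 to 12 higher for DXR, and 32 to 38 lower for KCl. SDS had 4 to 9, 6 to 26, 15 to 33, 8 to 21, 8 to 21, 2 to 15 and 5 to 11 higher on days 1 to 4, 6, 8 and 16. KCl had 4 to 22, 9 to 27 and 9 to 14 higher on days 3, 4 and 6 and 9 to 16 lower on day 8. DXR had 8 to 13 with 8 to 9 MT, 5 to 8, 6 to 10 and 6 to 22 higher on days 1, 3, 6 and 8, and 9 to 19 lower on day 16; RS had 5 to 19 lower. SDS minus DXR had 14 to 28 lower on day 0 and 7 to 17 higher on day 2, SDS minus KCl 1 to 26 higher on day 8, and KCl minus DXR 8 to 11 MT lower on day 1, 4 to 27 lower on day 8 and 3 to 9 higher on day 16. From day 0 to day 16, SDS had 11 to 22 higher and 7 to 13 lower, DXR 11 to 27 lower and KCl 32 to 37 higher. Over single members and settings, calls missed the threshold 1424 times when a library was left out and 1623 times under the other alternatives; the cause was not tested.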
